A study of Homo sapiens with 8 samples.

Results

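The comparison described here set 293T cells carrying a short hairpin RNA against PAF1 (PAF1sh, 2 arrays) against 293T cells carrying a control hairpin (NCsh, 2 arrays). These 4 arrays were chosen by their titles out of 8 in the series, in which each of 4 hairpins had 2 arrays; the remaining hairpins target H1.2, a linker histone (H1.2sh), and Cul4A, which holds a ubiquitin ligase together (Cul4Ash), and served here as further references. All 4 groups share the cell line, a human embryonic kidney line that stably expresses the SV40 T antigen, a viral protein known to bind p53 and the retinoblastoma protein. The assay was the Illumina bead array, on which short probes on beads each report 1 transcript as a brightness. The comparison asks which genes differ between PAF1sh and NCsh cells. The labels name 1 hairpin per target, no rescue, no time after the hairpin was introduced and no separate cultures. Effects of losing PAF1 and other effects of its hairpin therefore cannot be told apart, and p-values reflect only how far these arrays vary, which could be technical variation.

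PAF1 is a subunit of the PAF1 complex, which travels along genes with RNA polymerase II. With CTR9, LEO1, CDC73, RTF1 and SKIC8 it is known to release the paused polymerase into elongation, to direct the ubiquitylation of histone H2B and the methylation of histone H3 behind it, and to link transcription to the making of messenger RNA 3′ ends. In yeast the complex is also known for its part in forming small nucleolar RNA 3′ ends, and in human cells for the expression of HOX genes and cell cycle genes.

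Levels are given as log2 of the quantile-normalized intensity, in which 1 unit is a doubling, and changes as PAF1sh minus NCsh on that scale with the standard error of the fit. A gene is said to rise or fall where limma gave an adjusted p under 0.05 over all 12300 genes tested. Background remains in the deposited intensities, so changes of dim genes are understated. In bulk RNA, fewer cells with a transcript and less of it per cell cannot be told apart. The median intensity lay between 83.1 and 85.7 on these 4 arrays, and 42.3% to 42.5% of probes were detected above background on the 3 of them that have detection p-values. Over the tested genes, arrays of 1 group correlated at 0.996 (Pearson) and PAF1sh with NCsh arrays at 0.974 to 0.975. Of 8 genes known from 293T cells, 6 were detected on all of the 3 arrays with detection p-values, and PAX2 and LHX1 on none. Of 12 defining markers of blood, endothelial, fibroblast, liver and keratinocyte cells, COL1A1 and ALB were detected on all 3. ALB was 0.39 ± 0.10 higher in PAF1sh, a call lost without PAF1sh replicate 1 (0.24) or NCsh replicate 1 (0.38).

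PAF1 itself was at 7.92 and 8.03 on the PAF1sh arrays, against 10.61 and 10.50 on the NCsh arrays, the check of the label, and 5.99-fold lower (-2.58 ± 0.08, adjusted p = 5.72e-08). It was the second largest fall of all genes. The other measured subunits of the complex did not pass the test. CTR9, the scaffold of the complex, changed by 0.24 ± 0.09, the tetratricopeptide partner SKIC8, which also serves in RNA decay, by 0.19 ± 0.07, RTF1, which is known to stimulate H2B ubiquitylation, by 0.08 ± 0.08, and LEO1, the partner of PAF1 in its dimer, by -0.01 ± 0.10 (adjusted p = 0.0610, 0.0734, 0.474 and 0.936). The value of LEO1 turned to 0.06 without PAF1sh replicate 1 and to 0.08 without NCsh replicate 2. CDC73 was not detected on enough arrays to be tested. LEO1 lay at 8.43 and 8.58 on the PAF1sh arrays, against 8.43 and 8.61 on the NCsh arrays.

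Many genes differed between PAF1sh and NCsh cells, about as many up as down, and most of the differences were small. Of 12300 genes, 2336 rose (19.0%) and 2448 fell (19.9%), together 38.9%. At least 2-fold changes were found in 90 genes that rose (0.732%) and 160 that fell (1.30%), so the large changes were more often falls. The counts of each gene group below are to be read against the 19.0% and 19.9%, and a group's median against the median of all genes, 0.00. When the scanner signals were processed with neqc instead, with 1 PAF1sh array left, 819 genes rose and 1220 fell; the matrix values of the same arrays gave 1635 and 1858. With median scaling 1483 rose and 2248 fell, so rises depend more on the scaling; beside a list whose count moved by over 1.5 times under it, both counts are given. Among genes named below as having risen or fallen, AFF4, KMT2B, SETD2, KDM5B, INTS5, LSM10, SLBP, MAD2L1, MCM5, DKC1, SUZ12, YPEL1, ENO1, PFKM, PCNA, PLK1, CDCA8, H2BC12, HEXA, HOXC6, HOXC8, HOXD13, ITGB3BP and the 5 RNA polymerase II subunits did not pass with neqc.

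**Figure D1:**
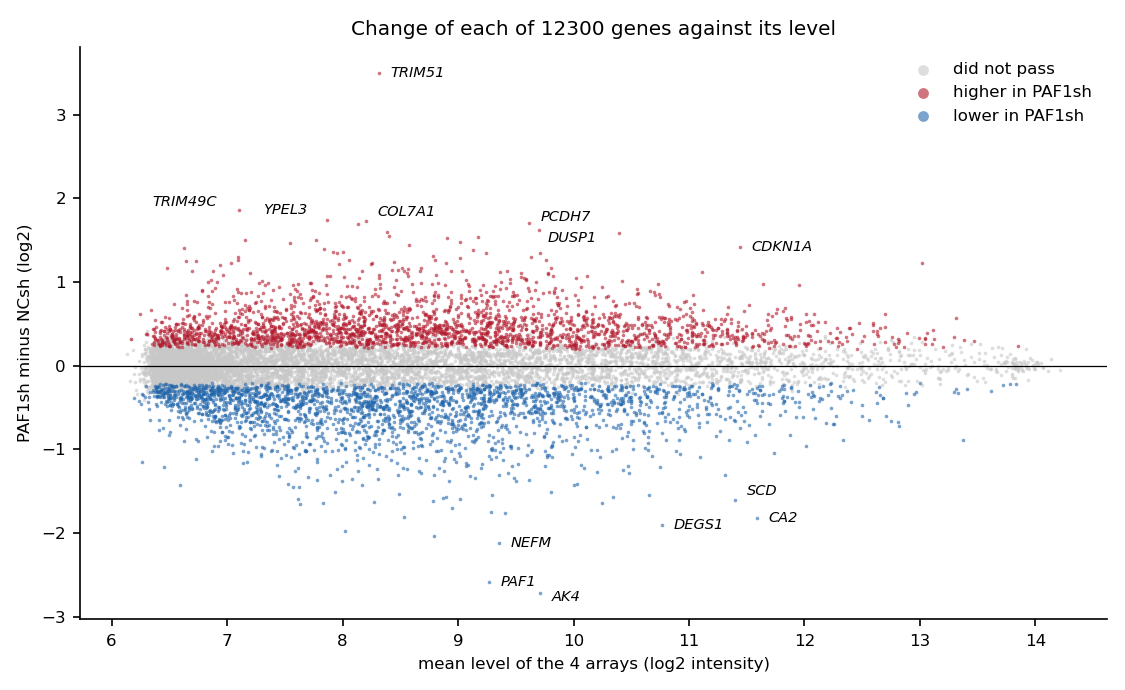
Change of each of the 12300 genes (PAF1sh minus NCsh, log2, vertical axis) against its mean level on the 4 arrays (log2 intensity, horizontal axis); each point is a gene, red where it was higher and blue where it was lower in PAF1sh past an adjusted p of 0.05. TRIM51 at 3.50 stands above all other genes, and AK4 and PAF1 lie lowest, at -2.72 and -2.58.

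Among the genes that fell most, AK4, a mitochondrial adenylate kinase, was at 8.36 and 8.34 on the PAF1sh arrays, against 11.13 and 11.00 on the NCsh arrays. It fell further than PAF1 (-2.72 ± 0.08, adjusted p = 5.72e-08), while 3 other AK4 probes gave -1.14, -0.91 and -0.80. DEGS1, the desaturase that completes ceramide, was at 9.81 and 9.82 in PAF1sh cells and 11.72 and 11.73 in NCsh cells (-1.91 ± 0.08), with the same fall on its other probe (-1.95). Both genes were thus lower on each PAF1sh array than on either NCsh array by well over the difference between arrays of a group. CA2, a carbonic anhydrase, was at 10.84 and 10.52 on the PAF1sh arrays, against 12.46 and 12.54 on the NCsh arrays (-1.82 ± 0.11). NEFM, a neurofilament subunit, was at 8.35 and 8.25 in PAF1sh cells and 10.41 and 10.43 in NCsh cells (-2.12 ± 0.08). LRATD2 (-2.04 ± 0.09), the secreted protease ADAMTS1 (-1.81 ± 0.08), the inositol trisphosphate receptor ITPR3 (-1.70 ± 0.08), the G protein subunit GNG4 (-1.66 ± 0.08) and CFD, complement factor D (-1.65 ± 0.08), also fell more than 3-fold. PAIP2, which is known to hold back the poly(A)-binding protein in translation, fell too (-1.64 ± 0.09, -0.49 at its other probe).

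Among the genes that rose most, COL7A1, the collagen of anchoring fibrils, was at 9.05 and 9.08 on the PAF1sh arrays, against 7.29 and 7.38 on the NCsh arrays (1.73 ± 0.09, adjusted p = 1.39e-06). PCDH7, a protocadherin, was at 10.52 and 10.41 in PAF1sh cells and 8.87 and 8.67 in NCsh cells (1.70 ± 0.09), and its other probe rose by 0.79. YPEL3, a small zinc-binding protein linked to growth arrest, was at 8.70 and 8.77 on the PAF1sh arrays, against 6.89 and 7.10 on the NCsh arrays (1.74 ± 0.09). In each case the lower PAF1sh array lay above the higher NCsh array by several times the difference between arrays of a group. DSC2, a desmosomal cadherin (1.55 ± 0.13, 0.78 at its other probe), SNAI2, a repressor of epithelial genes (1.53 ± 0.08), the small GTPase RHOC (1.58 ± 0.08), galectin-1, encoded by LGALS1 (1.47 ± 0.12), and MXD3, which competes with MYC for MAX (1.50 ± 0.09), rose as well. SNORD3D, a copy of the U3 nucleolar RNA that guides ribosomal RNA processing, was at 9.21 and 9.15 in PAF1sh cells and 7.42 and 7.75 in NCsh cells (1.60 ± 0.11); its near-identical copies may share the probe. SSPOP, a pseudogene, did not exceed background on either NCsh array and was at least 2.83-fold higher in PAF1sh, a bound that sets its mean against the lowest signal detected. None of the 15 largest rises and 15 largest falls lost its call under those of the 16 other ways of processing that kept it. The filter for detection on all scanner arrays drops genes not above background in NCsh, such as SSPOP, and so could not test them. These largest changes were picked by size from the same arrays, so their calls say nothing of smaller changes. Of 299 called genes eligible to be named, 107 lost the call under at least 1 of these ways.

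**Figure D2:**
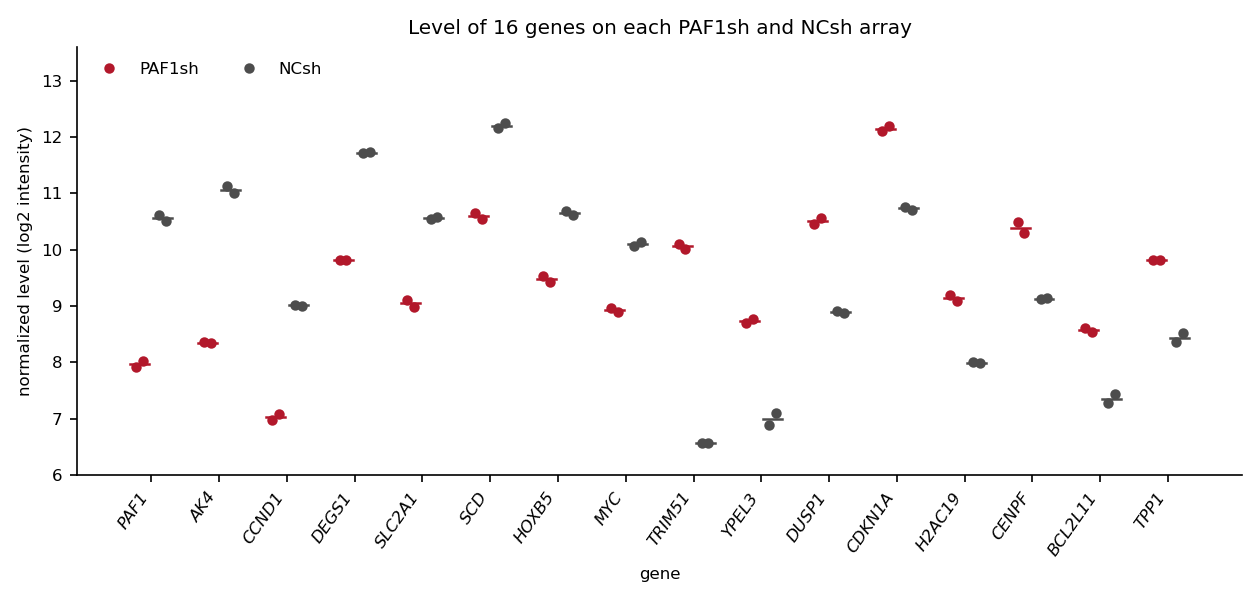
Level of 16 genes (log2 intensity, vertical axis) on each PAF1sh array (red points, left) and NCsh array (grey points, right); lines mark the mean of the 2 arrays. The genes were picked from those already called, so in each the 2 arrays of a group lie closer to each other than to the other group. TRIM51 was at 10.11 and 10.02 in PAF1sh and 6.57 and 6.56 in NCsh, and DEGS1 at 9.81 and 9.82 in PAF1sh and 11.72 and 11.73 in NCsh.

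TRIM51 and its relatives rose together. TRIM51 belongs to a set of recently duplicated TRIM genes, many of them on chromosome 11, that encode RING and B-box proteins. TRIM51 was at 10.11 and 10.02 on the PAF1sh arrays, against 6.57 and 6.56 on the NCsh arrays, the largest change of any gene (11.3-fold, 3.50 ± 0.10, adjusted p = 5.72e-08). Of 14 genes of the family listed, 10 are on the array and 8 were measured, of which 7 rose; 7 of the 8 were not above background on the NCsh arrays. These passed the detection filter through other arrays, so their count is given as a description only. TRIM49C was at 8.10 and 7.96 in PAF1sh cells and 6.31 and 6.03 in NCsh cells, at least 3.48-fold higher, though another TRIM49C probe changed by 0.06. TRIM48 (1.22 ± 0.11), TRIM49D2 (1.13 ± 0.11), TRIM49D1 (1.00 ± 0.08) and TRIM49 (0.74 ± 0.12) were at least 2.33-fold, 2.17-fold, 2.00-fold and 1.64-fold higher. TRIM43B, whose rise of 0.42 ± 0.15 (1.33-fold) was the smallest, lost its call without any one of the 4 arrays (0.33 to 0.50). TRIM43, at 0.14 ± 0.09, did not pass. Members of the family are near-identical in sequence and the probes were not checked for copies they share, so which of them contribute to each signal is uncertain.

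Because these genes moved together, their promoters are shown, as given by RefSeq on GRCh38.p14; windows of 120 bases from 3 members are printed 5′ to 3′ along the gene, placed so that the run they share stands alike in each. They begin 232, 159 and 207 bases before the start of TRIM51, TRIM48 and TRIM49D2 and end 113, 40 and 88 bases before it, at chr11:55883065-55883184 (plus strand) for TRIM51, chr11:55261996-55262115 (plus) for TRIM48 and chr11:89923857-89923976 (plus) for TRIM49D2. Capitals mark the longest run of letters that the 3 windows share, 19 bases, which was found in 5 of 27305 promoter windows: those of TRIM51, TRIM51G, TRIM48, TRIM49B and TRIM49D2. The 300-base windows of TRIM49 and TRIM49C differ at 1 base. Neither is among the 5 with the run, though both genes rose, so the 3 windows shown do not stand for all members that rose.
TRIM51: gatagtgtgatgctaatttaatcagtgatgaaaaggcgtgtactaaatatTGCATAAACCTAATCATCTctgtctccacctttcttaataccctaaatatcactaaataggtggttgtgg
TRIM48: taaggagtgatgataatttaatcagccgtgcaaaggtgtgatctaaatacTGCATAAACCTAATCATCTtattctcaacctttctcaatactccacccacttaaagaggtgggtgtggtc
TRIM49D2: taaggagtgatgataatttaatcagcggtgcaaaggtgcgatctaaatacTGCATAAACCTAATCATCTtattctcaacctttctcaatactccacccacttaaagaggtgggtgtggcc
The run lies in related surroundings in all 3, and TRIM48 and TRIM49D2 are the more alike along the windows shown.

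Factors that act with the PAF1 complex on the elongating polymerase changed by small amounts in both directions. Of 30 measured elongation and pausing factors 9 rose and 5 fell, a median of 0.13. TCEA2, a relative of elongation factor TFIIS, was at 9.28 and 9.51 on the PAF1sh arrays, against 8.64 and 8.66 on the NCsh arrays (0.74 ± 0.09). SUPT5H, the large subunit of DSIF that holds and then drives the polymerase, rose by 0.58 ± 0.08, and LARP7, which stabilizes the 7SK RNA that restrains the pause-release kinase, by 0.62 ± 0.11. AFF4, the scaffold of the super elongation complex, changed the other way (-0.61 ± 0.14), as did the kinase CDK13 (-0.48 ± 0.08). Of 12 subunits of RNA polymerase II, of which 1 rose and 4 fell (0 and 3 with median scaling), POLR2H (-0.39 ± 0.09), POLR2L (-0.38 ± 0.08), POLR2D (-0.34 ± 0.09) and the largest subunit POLR2A (-0.22 ± 0.08) fell and POLR2B rose (0.28 ± 0.09); without PAF1sh replicate 1 the calls of POLR2H (-0.28), POLR2D (-0.25), POLR2A (-0.17) and POLR2B (0.18) are lost. Without NCsh replicate 1 those of POLR2D (-0.32), POLR2A (-0.25) and POLR2B (0.29) are lost, and without NCsh replicate 2 those of POLR2A (-0.19) and POLR2B (0.27).

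The enzymes that write and erase the marks linked to the PAF1 complex rose or did not pass. Of 31 measured genes of H2B ubiquitylation and H3 methylation 11 rose and 20 did not pass, a median of 0.13, and with median scaling 6 rose. UBE2A, the E2 enzyme of H2B ubiquitylation, was at 11.18 and 11.30 on the PAF1sh arrays, against 10.53 and 10.56 on the NCsh arrays (0.70 ± 0.08). RNF20 and RNF40, the E3 ligase that works with it, were at 0.13 ± 0.09 and -0.06 ± 0.10 and did not pass. KMT2B, a methyltransferase for histone H3 lysine 4, rose by 0.57 ± 0.08 and SETD2, which methylates lysine 36 on transcribed genes, by 0.48 ± 0.07; the demethylase KDM5B rose too (0.47 ± 0.08).

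Genes of cleavage, polyadenylation and the Integrator complex, which cuts small nuclear RNAs and attenuates transcription, changed in both directions. Of 32 measured, 13 rose and 7 fell, with a median of 0.05. RBBP6, a cleavage factor, was at 9.11 and 9.00 on the PAF1sh arrays, against 7.94 and 7.88 on the NCsh arrays (1.14 ± 0.09, 0.36 at its other probe), and CPSF1, the largest subunit of the complex that reads the poly(A) signal, at 10.40 and 10.47 in PAF1sh cells and 9.65 and 9.54 in NCsh cells (0.84 ± 0.08). INTS3, an Integrator subunit, was at 8.81 and 8.77 on the PAF1sh arrays, against 9.81 and 9.94 on the NCsh arrays (-1.09 ± 0.09), and INTS5 rose (0.65 ± 0.09). INTS3 and INTS5 thus moved opposite ways within 1 complex. CSTF3 changed by -0.74 ± 0.07 at the probe used, while other probes gave 0.53 and 0.51, so its direction depends on the probe. Of 12 genes that process histone messengers, the cap-binding protein NCBP2 (-0.98 ± 0.08), LSM10 (-0.54 ± 0.08) and CPSF2 (-0.52 ± 0.09) fell and SLBP, which binds the histone stem-loop, rose (0.47 ± 0.09); the other NCBP2 probe changed by -0.15. Of 55 splicing factors 8 rose and 7 fell (3 and 6 with median scaling), under the 19.0% and 19.9% of all genes. HNRNPH1 fell (-0.82 ± 0.08), and HNRNPA1 gave -1.26 ± 0.09 at 1 probe and 0.41 at another.

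Core histone genes were higher in PAF1sh. The messengers of these genes are made in S phase and normally end in a stem-loop with no poly(A) tail; the labelling kit named in the labels primes from poly(A) tails, so the arrays read only what of them was primed. Of 53 genes listed, 25 were measured, of which 15 rose, 1 fell and 9 did not pass, with a median of 0.36. Of the 25, 4 did not exceed background in NCsh and were kept through other arrays, which favours rises. Among all 12300 genes 523 were of this kind. H2AC25, outside the list, was at 9.50 and 9.83 on the PAF1sh arrays, against 8.12 and 8.17 on the NCsh arrays (1.52 ± 0.11, adjusted p = 7.04e-06), with an SE above that of most genes. H2AC19 (1.15 ± 0.08), H2AC18 (1.08 ± 0.09) and H2AC20 (1.02 ± 0.08), which lie near each other on chromosome 1, rose about 2-fold, and H2BC5 (0.95 ± 0.09), H2BC21 (0.88 ± 0.09) and H2AC6 (0.73 ± 0.10) by less. H2AC18 and H2AC19 are near-identical copies that may share probes. The member that fell was H2BC12 (-0.42 ± 0.08). Measured H3 and H4 genes rose by at most 0.53 (H4C8). Of 3 linker histones H1-10, a replication-independent form, was at 10.20 and 10.14 in PAF1sh cells and 9.29 and 9.32 in NCsh cells (0.87 ± 0.08), and H1-2 and H1-1 did not pass.

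The promoters of the 3 H2A genes that lie together are shown because these genes moved by like amounts, 100 bases up to the start, from RefSeq on GRCh38.p14: chr1:149850961-149851060 (plus strand) for H2AC19, chr1:149842751-149842850 (minus) for H2AC18 and chr1:149886818-149886917 (plus) for H2AC20. Capitals mark the TATA box letters TATAAA and the letters CCAAT or their reverse complement ATTGG.
H2AC19: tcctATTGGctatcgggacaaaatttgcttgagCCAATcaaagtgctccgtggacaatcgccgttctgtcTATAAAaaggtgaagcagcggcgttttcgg
H2AC18: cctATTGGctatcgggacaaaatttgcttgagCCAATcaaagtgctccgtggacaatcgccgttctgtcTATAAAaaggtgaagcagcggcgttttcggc
H2AC20: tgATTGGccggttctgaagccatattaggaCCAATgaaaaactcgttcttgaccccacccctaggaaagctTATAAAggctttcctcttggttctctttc
Searched on both strands of 300-base windows, TATAAA was in 19 of 23 core histone promoters, against 6.16% of all promoters of tested genes. It was in 11 of the 15 members that rose and in all 7 that did not pass, so the letters do not separate them. CCAAT was in 17 of the 23, against 37.2% of all.

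Among genes of the G1 phase, CCND1, CCND2 and CDK6 fell and the inhibitor genes CDKN1A, CDKN1B and CDKN2D rose. CCND1, cyclin D1, was at 6.98 and 7.09 on the PAF1sh arrays, against 9.02 and 9.00 on the NCsh arrays (3.93-fold lower, -1.98 ± 0.08), and CCND2, cyclin D2, at 8.39 and 8.44 in PAF1sh cells and 10.12 and 10.20 in NCsh cells (-1.75 ± 0.08, -1.30 at its other probe). Their partner kinase CDK6 was at 8.67 and 8.51 on the PAF1sh arrays, against 9.82 and 9.79 on the NCsh arrays (-1.22 ± 0.08). All 3 lay lower on both PAF1sh arrays than on either NCsh array by more than 1 log2 unit. CDKN1A, which encodes the inhibitor p21, was at 12.10 and 12.19 on the PAF1sh arrays, against 10.76 and 10.70 on the NCsh arrays (2.67-fold higher, 1.42 ± 0.08). CDKN1B, which encodes p27, was at 9.97 and 10.01 in PAF1sh cells and 8.80 and 8.92 in NCsh cells (1.13 ± 0.09), and CDKN2D, which encodes the CDK4 and CDK6 inhibitor p19, at 8.83 and 8.88 on the PAF1sh arrays, against 7.60 and 7.68 on the NCsh arrays (1.22 ± 0.10). The 3 inhibitor genes too did not overlap between groups. All 6 were named for large called changes, so this separation adds nothing to the calls. In the whole list of 27 cyclins, CDKs, inhibitors and their targets 8 rose and 6 fell, with a median of -0.02.

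Genes that act at entry into mitosis were higher. Of 20 mitotic entry regulators, 11 rose and 2 fell, with a median of 0.29. CDC25C, the phosphatase that switches on CDK1, was at 9.41 and 9.48 on the PAF1sh arrays, against 8.03 and 8.23 on the NCsh arrays (1.31 ± 0.09), and its 2 other probes rose by 1.13 and 1.12. Its relative CDC25A, which acts earlier in the cycle, was at 10.50 and 10.64 in PAF1sh cells and 11.31 and 11.39 in NCsh cells (-0.78 ± 0.09). The checkpoint gene MAD2L1 was the other that fell (-0.61 ± 0.09, not past the threshold at its other probe). NEK2, a kinase that splits centrosomes, rose by 0.93 ± 0.09, and LIN54 (0.63 ± 0.09) and LIN9 (0.58 ± 0.10), subunits of the DREAM and MYB complexes that control mitotic genes, rose as well. Of 47 kinetochore, spindle and cytokinesis genes 13 rose and 5 fell (median 0.06), and 8 rose with median scaling. CENPF was at 10.49 and 10.30 on the PAF1sh arrays, against 9.13 and 9.14 on the NCsh arrays (1.26 ± 0.08), the microtubule depolymerase KIF2C rose by 0.74 ± 0.08 and CENPA, the histone H3 of the centromere, by 0.65 ± 0.08.

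Because this group has a known promoter element, the cell cycle genes homology region, windows of 100 bases up to the start are shown for 4 members that rose, from chr2:26785956-26786055 (plus strand) for CENPA, chr4:83010824-83010923 (minus) for LIN54, chr1:37692416-37692515 (plus) for CDCA8, a subunit of the chromosomal passenger complex, and chr16:23678789-23678888 (plus) for PLK1, the Polo kinase, from RefSeq on GRCh38.p14. Capitals mark the letters TTTGAA known from that element, which in LIN54 stand at the end of the window farthest from the start. Whether they act as the element was not tested.
CENPA: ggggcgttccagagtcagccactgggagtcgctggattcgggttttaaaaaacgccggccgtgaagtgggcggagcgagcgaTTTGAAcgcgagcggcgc
LIN54: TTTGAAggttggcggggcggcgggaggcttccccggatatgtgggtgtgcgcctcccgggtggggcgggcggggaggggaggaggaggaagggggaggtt
CDCA8: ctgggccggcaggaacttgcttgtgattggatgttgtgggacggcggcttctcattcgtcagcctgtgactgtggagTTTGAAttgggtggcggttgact
PLK1: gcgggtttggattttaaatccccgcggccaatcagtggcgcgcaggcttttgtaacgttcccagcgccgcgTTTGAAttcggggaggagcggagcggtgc
In 300-base windows and on both strands, TTTGAA was in 27 of 42 promoters of the kinetochore, spindle and cytokinesis list and in 5 of 15 of the mitotic entry list, against 9.96% of all promoters of tested genes. In the first list it was in 8 of 11 members that rose, 2 of 5 that fell and 17 of 26 that did not pass, so many members with no called change held it too. In the second it was in 3 of 9 that rose, 1 of 2 that fell and 1 of 4 that did not pass. The 4 windows shown, which all hold it, therefore do not stand for all members that rose.

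Machinery of chromosome structure, replication and repair was split. Of 18 cohesin and condensin genes 6 rose and 3 fell: STAG1, a cohesin subunit, was at 7.91 and 7.76 on the PAF1sh arrays, against 8.88 and 8.94 on the NCsh arrays (-1.07 ± 0.08), SMC2, a core subunit of condensin, gave -1.02 and -1.06 at 2 probes and -0.12 at another, and the condensin subunit NCAPD2 (0.83 ± 0.09) and topoisomerase TOP2A (0.68 ± 0.08) rose. Of 20 genes of the anaphase-promoting complex 7 rose and 5 fell, CDC23 most (-0.83 ± 0.09). Of 49 DNA replication genes 12 rose and 12 fell, with a median of 0.03; with median scaling 6 rose and 10 fell. POLA2, a subunit of the primase polymerase (-0.86 ± 0.07), and TYMS, which makes thymidylate (-0.80 ± 0.08), fell, and the helicase subunits MCM5 (0.55 ± 0.09) and PCNA, the sliding clamp (0.48 ± 0.09), rose; the mean of the PCNA probes, 0.12, did not pass. Of 19 homologous recombination and Fanconi genes 5 rose (3 with median scaling) and 3 fell, FANCC most (-0.58 ± 0.08).

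Of 24 genes known as p53 targets, 9 rose and 4 fell, with a median of 0.17. Besides CDKN1A, TP53INP1, which acts in stress-induced death and autophagy, was at 8.92 and 9.04 on the PAF1sh arrays, against 7.25 and 7.33 on the NCsh arrays (1.69 ± 0.09), and PPM1D, the phosphatase that turns the p53 response off, at 9.98 and 9.87 in PAF1sh cells and 8.74 and 8.87 in NCsh cells (1.12 ± 0.09). GADD45A rose by 0.66 ± 0.10, while CCNG1, a cyclin-like protein, fell (-0.79 ± 0.09). The members that rose and those that fell both include genes known to be induced by p53. In the BCL2 family of 16 genes 3 rose and 4 fell: the death promoter BCL2L11, known as BIM, was at 8.60 and 8.54 on the PAF1sh arrays, against 7.27 and 7.44 on the NCsh arrays (1.22 ± 0.08, with rises of 0.58 and 0.85 at its other probes) and BMF, another of this kind that did not exceed background in NCsh, was at least 1.66-fold higher. BID, which carries the death signal from caspase 8 to mitochondria, was at 7.44 and 7.38 in PAF1sh cells and 8.71 and 8.81 in NCsh cells (-1.35 ± 0.09). Another BID probe fell by -0.72, and a dimmer one changed by 0.21 without passing. The survival gene BCL2L2 fell (-0.79 ± 0.09).

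Of 25 measured immediate early genes, which respond to growth factors and stress within minutes, 13 rose, 2 fell and 10 did not pass, with a median of 0.29. Of the 25, 3 did not exceed background in NCsh and were kept through other arrays, which favours rises. ATF3 was at 10.34 and 10.33 on the PAF1sh arrays, against 9.22 and 9.23 on the NCsh arrays (1.10 ± 0.08), and JUND at 12.13 and 12.12 in PAF1sh cells and 11.11 and 11.18 in NCsh cells (0.98 ± 0.08). FOS was at 7.29 and 7.34 on the PAF1sh arrays, against 6.38 and 6.45 on the NCsh arrays; it did not exceed background on either NCsh array and was at least 1.86-fold higher in PAF1sh. IER5 (1.08 ± 0.08) and CCN1, a matricellular protein (0.82 ± 0.08), also rose. The members that fell were MYC, at 8.96 and 8.89 on the PAF1sh arrays, against 10.06 and 10.15 on the NCsh arrays (-1.18 ± 0.07, -0.91 at its other probe), and SRF, the factor that drives many immediate early genes, at 9.98 and 10.05 in PAF1sh cells and 11.05 and 10.96 in NCsh cells (-0.99 ± 0.08). In the MYC network of 10 genes 3 rose and 3 fell, among them MXD3, already given, and MXI1 (-0.57 ± 0.08).

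Regulators of signalling pathways changed in both directions. Among 12 feedback regulators of the ERK kinases 2 rose and 5 fell. DUSP1, a phosphatase of MAP kinases, was at 10.46 and 10.56 on the PAF1sh arrays, against 8.91 and 8.87 on the NCsh arrays (1.62 ± 0.08), and the receptor pathway inhibitors SPRED1, at 7.57 and 7.35 in PAF1sh cells and 8.43 and 8.50 in NCsh cells, and SPRY1 (-0.96 ± 0.08) fell about 2-fold. Of 13 TGF-beta and BMP targets 6 rose and 1 fell, with a median of 0.27, and 3 rose with median scaling; besides SNAI2 they included ID3 (0.84 ± 0.07) and BAMBI (0.82 ± 0.10), and ID2 was the member that fell (-0.70 ± 0.08). Of 13 Wnt targets, which include CCND1 and MYC, 5 fell and 1 rose (0 rose with median scaling); NKD2, a Wnt antagonist (-1.28 ± 0.08), and ZNRF3, which removes Wnt receptors (-0.65 ± 0.10), fell. Among 16 Hippo pathway genes 3 rose and 3 fell, the factor TEAD2 most (-1.31 ± 0.08). Of 16 Notch pathway genes 3 rose and 3 fell, among them NOTCH2 (0.70 ± 0.08) and the ligand JAG2 (-0.81 ± 0.08, -0.41 at its other probe). The YPEL family rose in all 4 measured members, with YPEL5 at 9.61 and 9.58 on the PAF1sh arrays, against 8.47 and 8.47 on the NCsh arrays (1.13 ± 0.07), YPEL2 at 0.58 ± 0.09 and YPEL1 at 0.54 ± 0.08.

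Glycolysis and hypoxia genes were lower. Of 36 measured genes 17 fell, 1 rose and 18 did not pass, with a median of -0.21. SLC2A1, a glucose transporter of many cell types, was at 9.11 and 8.99 on the PAF1sh arrays, against 10.54 and 10.58 on the NCsh arrays (2.85-fold lower, -1.51 ± 0.08). The regulators PFKFB3 (-1.27 ± 0.08, -0.75 at its other probe) and PFKFB4 (-1.01 ± 0.09), which make the activator of phosphofructokinase, and the enzyme itself, PFKP, at 8.97 and 9.16 in PAF1sh cells and 10.13 and 10.13 in NCsh cells (-1.07 ± 0.08), fell about 2-fold. HK2, a hexokinase, fell (-0.98 ± 0.08), with -0.27 at its other probe, which did not pass. Other enzymes of the pathway changed little: ENO1 fell (-0.22 ± 0.07; -0.18 to -0.26 without any one of the 4 arrays, its call lost each time), and LDHA (-0.20 ± 0.08), PKM (-0.06 ± 0.07) and ALDOA (-0.16 ± 0.10) did not pass. PFKM, the muscle form of phosphofructokinase, was the member that rose (0.48 ± 0.07). 

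Genes of fatty acid synthesis were lower. Of 18 measured genes 11 fell and 7 did not pass, with a median of -0.36. SCD, the desaturase that makes oleate, was at 10.65 and 10.54 on the PAF1sh arrays, against 12.15 and 12.25 on the NCsh arrays (3.04-fold lower, -1.60 ± 0.08). ACACA, which makes malonyl-CoA, fell (-0.61 ± 0.08, -0.63 at its other probe). AGPAT2 (-0.86 ± 0.09), which makes phosphatidic acid, ACSL1 (-0.78 ± 0.08), which activates fatty acids, and SCD5 (-0.73 ± 0.10) fell too. FASN, the synthase, was at -0.19 ± 0.08 and did not pass. Of 18 cholesterol synthesis genes 6 fell and 2 rose (1 with median scaling), DHCR7 most (-0.63 ± 0.09). Of 28 sphingolipid genes 9 rose and 5 fell. The 4 largest changes were falls: DEGS1, GLTP, which moves glycolipids (-1.05 ± 0.08), and the ceramide synthases CERS2 (-0.76 ± 0.09) and CERS1 (-0.65 ± 0.11).

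Genes of the amino acid response changed in both directions. Of 33 measured genes 13 fell and 7 rose, with a median of -0.16. The stress factors DDIT3, at 8.88 and 9.13 on the PAF1sh arrays, against 7.85 and 7.86 on the NCsh arrays (1.15 ± 0.09), and ATF3 rose. ATF5, a relative of ATF4, was at 8.33 and 8.60 in PAF1sh cells and 9.73 and 9.59 in NCsh cells (-1.20 ± 0.10), and the pseudokinase TRIB3 (-0.92 ± 0.09) and the amino acid transporter SLC7A5 (-0.91 ± 0.08) fell. Of 18 aminoacyl-tRNA synthetases 3 rose and 4 fell, near the background. Of 13 NRF2 antioxidant genes 5 fell, ME1 most (-0.85 ± 0.16). Of 26 interferon-stimulated and antigen presentation genes 7 rose and 4 fell, IFI27 (0.93 ± 0.13) and the peptide transporter TAP1 (-0.94 ± 0.08) most. None of 8 measured NF-kB targets passed limma's adjusted threshold, and 2 had an unadjusted p under 0.05.

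**Figure D3:**
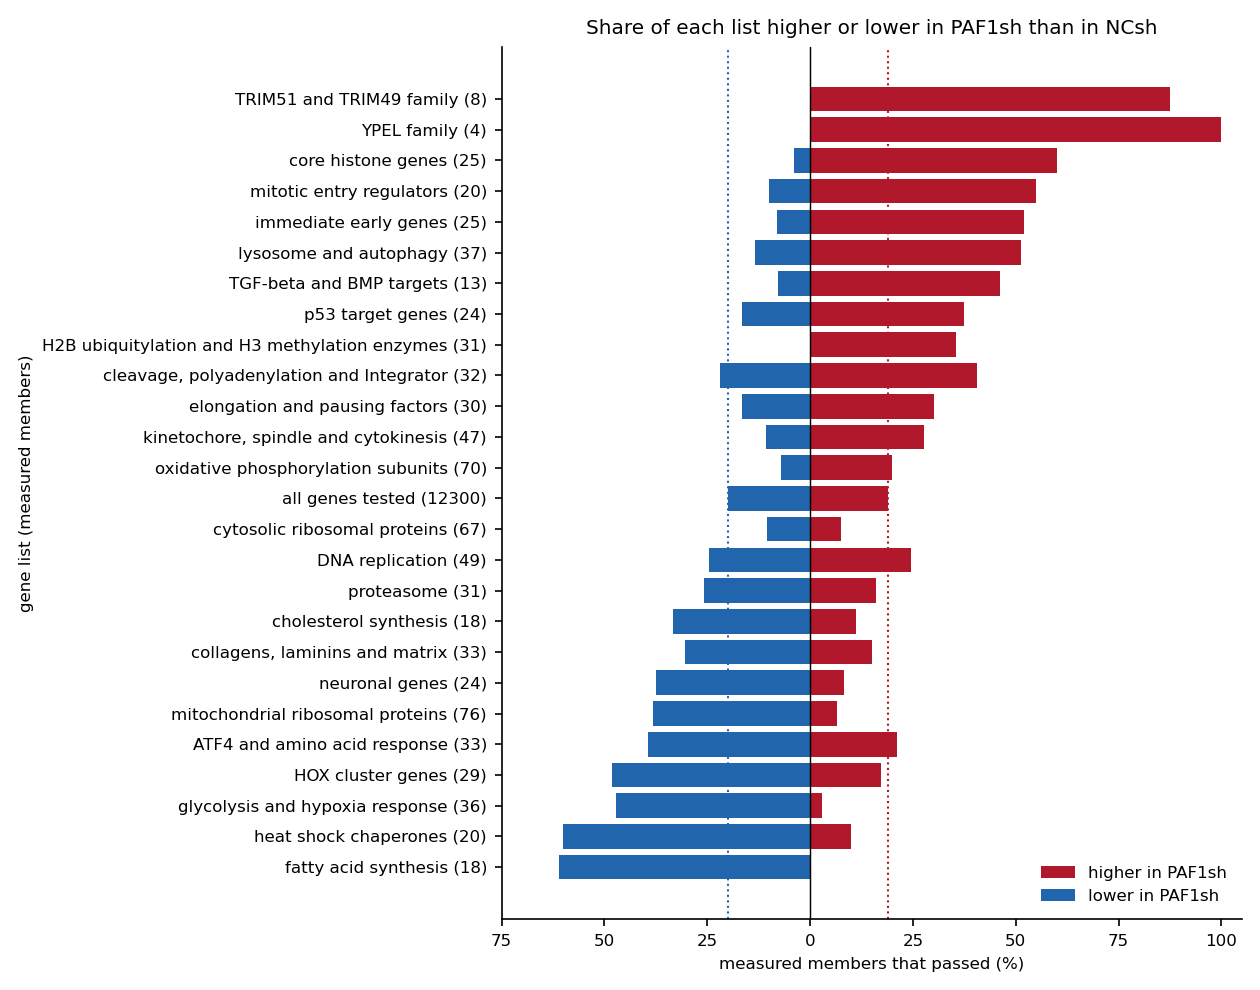
Share of the measured members of 25 gene lists, and of all 12300 genes, that were higher (red, to the right) or lower (blue, to the left) in PAF1sh than in NCsh, in percent; the number of measured members stands in brackets and dotted lines mark 19.0% and 19.9%, the shares of all genes. Core histone genes reach 60.0% higher, and fatty acid synthesis genes 61.1% lower.

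Heat shock chaperones were lower and lysosome genes higher. Of 20 measured chaperone genes 12 fell and 2 rose, with a median of -0.27. HSPA1B, an inducible HSP70, was at 12.92 and 12.94 on the PAF1sh arrays, against 13.80 and 13.83 on the NCsh arrays (-0.88 ± 0.07), and the HSP110 relatives HSPA4 (-1.11 ± 0.11) and HSPA4L (-1.02 ± 0.11) fell by about 2-fold. HSPA1A and HSPA1B are near-identical and may share probes. Constitutive HSPA8 (0.05 ± 0.09) and HSP90AB1 (0.12 ± 0.08) did not pass. Of 37 lysosome and autophagy genes 19 rose and 5 fell, with a median of 0.28. The protease CTSA was at 8.64 and 8.77 on the PAF1sh arrays, against 7.84 and 7.86 on the NCsh arrays (0.85 ± 0.08), CTSD rose by 0.65 ± 0.11, and the autophagy genes ATG2A (0.77 ± 0.08), ULK1 (0.71 ± 0.09) and GABARAPL1 (0.63 ± 0.09) rose. TPP1, a lysosomal peptidase outside the list, was at 9.82 and 9.82 on the PAF1sh arrays, against 8.36 and 8.51 on the NCsh arrays (1.38 ± 0.08). The members that fell include the hydrolases NAGLU (-0.47 ± 0.09) and HEXA (-0.41 ± 0.10; -0.31 without NCsh replicate 2 and -0.32 without PAF1sh replicate 2, its call lost), so the lysosomal enzymes did not all move one way. Of 22 endoplasmic reticulum folding genes 8 rose and 5 fell, SYVN1, a ligase of misfolded proteins, most (0.83 ± 0.08, 0.25 at its other probe). Of 31 proteasome genes 5 rose and 8 fell, against 1 and 6 with median scaling, and PSME3, a nuclear activator of the proteasome, was at 9.44 and 9.47 on the PAF1sh arrays, against 10.54 and 10.49 on the NCsh arrays (-1.06 ± 0.07).

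Of 76 measured mitochondrial ribosomal protein genes 29 fell and 5 rose (2 with median scaling), with a median of -0.16; with neqc 5 fell. The falls were moderate, with MRPS28 at 8.86 and 8.61 on the PAF1sh arrays, against 9.53 and 9.42 on the NCsh arrays (-0.74 ± 0.09) and MRPL11 at 10.67 and 10.70 in PAF1sh cells and 11.30 and 11.31 in NCsh cells (-0.62 ± 0.08). Subunits of oxidative phosphorylation did not share this: of 70 measured 14 rose and 5 fell (median 0.04), and with median scaling 1 rose, so the rises depend on the normalization. ATP5MC3, the membrane ring of ATP synthase, fell most (-0.66 ± 0.08). Of 67 cytosolic ribosomal proteins 5 rose (3 with median scaling) and 7 fell, well under the background, with falls of RPL29 (-0.74 ± 0.08) and RPS7 (-0.65 ± 0.08) that their other probes shared. Of 39 ribosome biogenesis genes 9 fell and 4 rose (2 with median scaling), DKC1, the pseudouridine synthase, most (-0.62 ± 0.08).

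The HOX results rest in part on probes whose deposited values go against each other, which is given first. A detection p-value ranks a signal among an array's negative controls, so a brighter probe cannot have a larger p on the same array, and none of 47220 probes broke this order on either NCsh array. On PAF1sh replicate 1 the signal was too low for its own p at 8 probes and on the scanner array that carries PAF1sh replicate 2 at 7, among them the probes used for HOXB13, HOXB9 and HOXD9. HOXB13 had signals of 105.2 and 94.1 on the PAF1sh arrays, where other probes with the same p began at 150.05 and 172. HOXB9 had signals of 100.8 and 78.1, where such probes began at 140.6 and 148, and HOXD9 had 86.1 and 106, where they began at 150.05 and 151. Where p is 0 and the signal is above that start, as for most bright genes, the order shows nothing. The signals of HOXB2, HOXB6, HOXB8, H1-2 and HNRNPH1 on PAF1sh replicate 1 have decimals between 0.112 and 0.113, as do 3 of the 8 probes out of order there and 0.129% of all probes on that array. On the array that carries PAF1sh replicate 2, 3 of the 7 probes out of order and 0.106% of all probes have such decimals. The share of all probes was 0.0847% on NCsh replicate 1 and 0.0889% on NCsh replicate 2. The cause of either was not tested, and the matrix values follow the same signals.

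Of 29 measured HOX genes and cofactors 14 fell and 5 rose, with a median of -0.20. Without HOXB13, HOXB9 and HOXD9, 11 of 26 fell and 5 rose (median -0.12), and without HOXB2, HOXB6 and HOXB8 too, 8 of 23 fell and 5 rose (median -0.03). In the HOXB cluster 7 of 9 measured genes fell, 5 of 7 without HOXB13 and HOXB9 and 2 of 4 without the further 3. HOXB5, which is in neither set, was at 9.53 and 9.43 on the PAF1sh arrays, against 10.69 and 10.62 on the NCsh arrays (-1.18 ± 0.08). HOXB2 was at 8.37 and 8.25 in PAF1sh cells and 9.42 and 9.47 in NCsh cells (-1.14 ± 0.08). HOXB6 fell by a like amount (-1.05 ± 0.10), though another HOXB6 probe changed by 0.08, and HOXB8 as well (-1.03 ± 0.13). As deposited, HOXB13 changed by -1.43 ± 0.11, HOXB9 by -1.15 ± 0.09 and HOXD9 by -1.21 ± 0.13. In the HOXD cluster HOXD10 fell (-0.93 ± 0.09), while HOXD11 (0.62 ± 0.08) and HOXD13 (0.66 ± 0.11) rose, and in the HOXC cluster HOXC4 fell (-0.93 ± 0.13) and HOXC6 (0.42 ± 0.09) and HOXC8 (0.49 ± 0.10) rose; the mean of the HOXC6 probes, 0.20, did not pass.

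**Figure D4:**
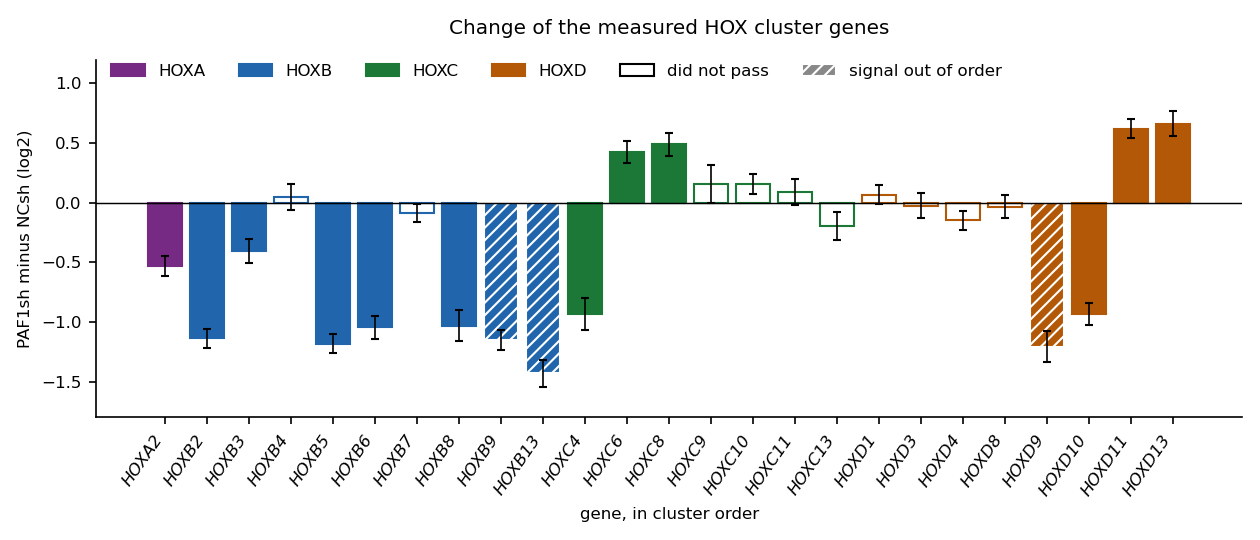
Change of the 25 measured HOX genes in the order of their clusters (PAF1sh minus NCsh, log2, vertical axis); bars are changes with the standard error of the fit, coloured by cluster, open bars did not pass the test, and hatched bars are the 3 genes whose signal and detection p-value are out of order. In HOXB 7 of 9 genes fell, 2 of them hatched, and HOXB5 stands at -1.18.

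Of 27 Polycomb and DNA methylation genes, whose products silence HOX genes among others, 8 rose (5 with median scaling) and 3 fell. EZH2, the methyltransferase of histone H3 lysine 27, was at 10.03 and 10.15 on the PAF1sh arrays, against 9.05 and 9.05 on the NCsh arrays (1.04 ± 0.08, with 0.90 and 0.80 at its other probes), and JARID2, which guides it, at 9.72 and 9.64 in PAF1sh cells and 8.78 and 8.82 in NCsh cells (0.88 ± 0.08). SUZ12, a core subunit of the same complex, was at 10.68 and 10.46 on the PAF1sh arrays, against 11.37 and 11.21 on the NCsh arrays (-0.72 ± 0.09). Subunits of 1 complex thus moved in opposite directions. Of 24 CUL4 ligase genes 6 rose (3 with median scaling), DCAF5 most (0.93 ± 0.09).

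Of 24 measured neuronal genes 9 fell and 2 rose (0 rose with median scaling). Besides NEFM, DPYSL4, a collapsin response protein, was at 8.49 and 8.56 on the PAF1sh arrays, against 10.27 and 10.29 on the NCsh arrays (-1.76 ± 0.08) and STMN3, a stathmin, at 9.54 and 9.58 in PAF1sh cells and 11.17 and 11.09 in NCsh cells (-1.57 ± 0.08); UCHL1 (-0.89 ± 0.10) and INA, another neurofilament-type protein (-0.85 ± 0.08), fell less. NEFL, one of the 293T markers, changed by -0.00 ± 0.09. Of 33 matrix genes 10 fell and 5 rose: COL18A1 (-1.41 ± 0.09), FBN2, a fibrillin (-1.04 ± 0.07), and COL6A1 (-0.87 ± 0.11) fell, while COL7A1, already given, and LAMB2 (1.06 ± 0.10) rose. Of 13 cadherins and protocadherins 5 rose and 8 did not pass; after PCDH7 the largest was PCDH18 (0.75 ± 0.09). Of 10 measured integrins, receptors for the matrix, ITGB1 (0.51 ± 0.08) and ITGAV (0.43 ± 0.07) rose. ITGAE was at -0.31 ± 0.10, a call lost under 9 of the 16 other ways of processing, among them without PAF1sh replicate 2, NCsh replicate 1 or NCsh replicate 2. ITGB3BP, a centromere protein that also binds integrins, fell (-0.41 ± 0.09).

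Set against the other hairpins, PAF1sh differed from H1.2sh in 40.2% of genes (2511 higher, 20.4%; 2431 lower, 19.8%) and from Cul4Ash in 41.0% (2438 higher, 19.8%; 2607 lower, 21.2%). These comparisons share the PAF1sh arrays with the one against NCsh and are given side by side with it. In 1203 genes PAF1sh was higher than in all 3 other groups and in 1340 lower. TRIM51 was 3.50, 3.51 and 3.64 above NCsh, H1.2sh and Cul4Ash. COL7A1 (1.73, 1.82 and 1.99), SIRT4, a mitochondrial sirtuin (1.47, 1.30 and 1.45), TPP1 (1.38, 1.47 and 1.31) and LLGL1, a cell polarity protein (1.29, 1.44 and 1.52), were likewise higher than in each group. CCND1 (-1.98, -2.44 and -2.19), CCND2 (-1.75, -2.60 and -2.26), ADAMTS1 (-1.81, -2.43 and -1.79), APIP, an enzyme of methionine salvage (-1.63, -1.97 and -2.25), and RMDN3, which tethers mitochondria to the endoplasmic reticulum (-1.54, -1.66 and -1.57), were lower. All standard errors of these changes were between 0.08 and 0.11.

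The size or direction of other changes differed with the hairpin set against PAF1sh. The core histone genes were higher than in H1.2sh in 15 of 25, but higher than in Cul4Ash in 3 and lower in 5; H2AC19 differed by 1.15 from NCsh, by 1.45 from H1.2sh and by -0.29 from Cul4Ash. AK4 differed by -2.72 from NCsh, by -2.08 from H1.2sh and by -0.72 from Cul4Ash, and RHOC by 1.58, 0.24 and 0.49. HSPA1B differed by -0.88 from NCsh, by -0.06 from H1.2sh and by 0.22 from Cul4Ash, and of the 20 chaperone genes 6 were lower and 4 higher than in H1.2sh and 2 lower and 7 higher than in Cul4Ash. Of the 33 amino acid response genes 17 were lower and 6 higher than in H1.2sh, and 5 lower and 18 higher than in Cul4Ash. Of the 18 fatty acid synthesis genes 12 were lower than in H1.2sh, and 7 lower and 3 higher than in Cul4Ash. Of the 37 lysosome and autophagy genes 16 and 18 were higher than in H1.2sh and Cul4Ash, and 4 and 5 lower.

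**Figure D5:**
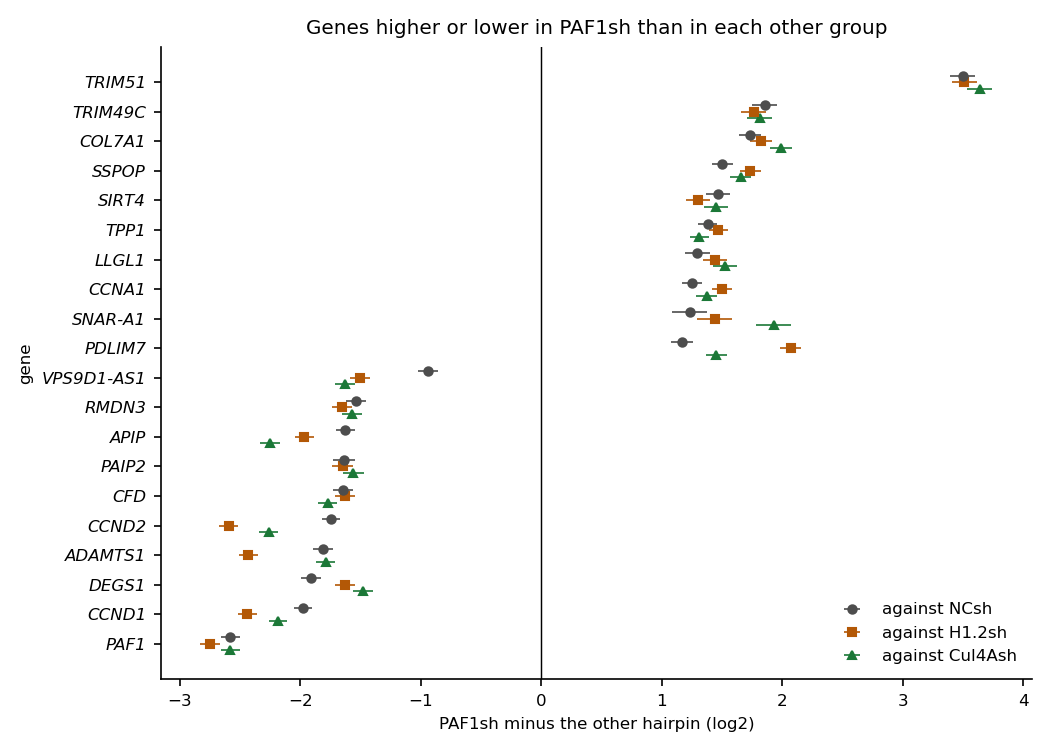
Changes of the 20 genes with the largest differences in 1 direction from all 3 other groups (PAF1sh minus the other hairpin, log2, horizontal axis), against NCsh (circles), H1.2sh (squares) and Cul4Ash (triangles); bars are standard errors of the fit. The 10 upper genes were higher in PAF1sh and the 10 lower genes were lower, with TRIM51 at 3.50 to 3.64 in the 3 comparisons.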

How the data were processed

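Total RNA of 293T cells was labelled as biotinylated cRNA with an Ambion MessageAmp kit, per the labels' protocols, and hybridized to Illumina bead arrays. Which software made the values is not given in the sources used here. In the series matrix the authors deposited, each probe has an intensity on a linear scale on every one of the 8 arrays, not normalized between arrays, as the values show. Each value is the scanner signal less a small amount that varies between probes, so background is only partly removed. The scanner table they deposited gives, for 47220 probes on 7 arrays, an intensity beside a detection p-value; 2 further columns are empty. Among its columns, that titled H1.2sh-2 carries the matrix values of Cul4Ash replicate 2, and that titled Cul4Ash-2 those of PAF1sh replicate 2, so groups came from the matrix through the sample titles.

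Matrix intensities were log2 transformed and quantile normalized, and probes detected (p under 0.05) on 2 or more of the 7 scanner arrays were kept. Since PAF1sh has 1 scanner array of undisputed name, a gene above background in PAF1sh alone was kept only where the array of disputed name or another array also detected it. Symbols were taken from the annotation GEO holds for the platform (30109 probes with 1 symbol, 8 with several, 17103 with none); 30070 were looked up in RefSeq's gene table, which changed 0 symbols. Of 22131 kept probes 16305 had 1 gene. For 3167 genes with several kept probes the probe with the highest mean was used, which gave 12300 genes. They were fitted with limma 3.58.1 (R 4.3.3), lmFit and eBayes, as 4 group means over 8 arrays (4 residual and 6.19 prior degrees of freedom), with Benjamini-Hochberg adjustment over all genes and a threshold of 0.05. Replicate numbers were not used as pairs. The fit was also run on simulated data for 12300 genes, built from the means and spreads of these arrays, whose outcome is not given here. A gene not detected on either NCsh array is given as a bound, written as at least so many fold. For it, NCsh values under the lowest signal detected were raised to that signal. Where none lay under it, the bound is the measured fold itself. Bounds take no account of variation between arrays. Precision is limited by having 2 arrays a group.

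Each scanner array was checked for probes whose signal is out of order with their detection p-value; 58, 87, 8, 60 and 7 were found on the arrays titled H1.2sh-1, Cul4Ash-1, PAF1sh-1, H1.2sh-2 and Cul4Ash-2 and 0 on both NCsh arrays. They stay in all fits but one alternative.

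The members and gene lists were chosen with earlier results of these data known. The genes named are PAF1 and its complex, the 15 largest rises and falls, up to 6 largest changes past the threshold in each list (all members of lists with 12 or fewer measured), and the 10 genes a direction that differed most from all 3 other groups. ALB, ALDOA, ATP6V0E2, CDCA8, COL1A1, ENO1, FASN, GABARAPL1, H2BC12, H4C8, HEXA, HOXB8, HOXC4, HOXC6, HOXC8, HOXD10, HOXD11, HOXD13, HSP90AB1, HSPA8, LDHA, MAT2A, MBD3L5, MTAP, NAGLU, NEFL, PCNA, PFKM, PKM, PLK1, RN7SK, RNF20, RNF40, RNU1-1, RNU5A-1, RNU6ATAC, RNVU1-18, TOMM5 and ZSCAN4 were named outside this rule, after their values were seen. So were MRI1 and ADI1. Alternatives changed the normalization, background correction, filter, probe choice, prior, samples fitted and each array left out.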

Additional observations from a re-analysis of the deposited data

Results flagged for a closer look

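Probes without a gene name in the platform annotation took no part in the comparisons. Of 5826 such probes that passed the detection filter, 577 were higher and 456 lower in PAF1sh at an adjusted p under 0.05 in a limma fit of their own, 35 and 22 of them at least 2-fold. The 5 with the largest rises are given here because each was at background on both NCsh arrays and well above it in PAF1sh, a signal outside the genes reported. Probe ILMN_3199598 was at 10.29 and 10.30 on the PAF1sh arrays, against 6.25 and 5.88 on the NCsh arrays (4.23). Probe ILMN_3236084 was at 10.33 and 10.30 in PAF1sh and 6.23 and 6.12 in NCsh (4.14). Both changes are larger than that of TRIM51, the largest of any named gene. Probes ILMN_1815905 (3.12), ILMN_1713736 (2.77) and ILMN_2221063 (2.49) rose by at least 8.72-fold, 6.82-fold and 5.63-fold. Which transcripts these probes detect was not analysed here.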

How the results depend on the processing

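Counts of genes that differed between PAF1sh and NCsh, 4784 with quantile-normalized matrix values, moved most with neqc on the 5 scanner arrays of undisputed name (2039 in all, 819 higher and 1220 lower), which leaves 1 PAF1sh array assumed to vary like the other groups; the matrix values of the same arrays, an alternative added after seeing the data, gave 1635 and 1858. The count of genes higher was 1483 with median scaling and 1413 with no normalization. Against H1.2sh, 1392 genes were lower with no normalization, and 62.4% of the calls were then higher, against 50.8% with quantile normalization; the cause of these moves was not tested. Leaving out each array in turn gave 1801 to 1888 genes higher and 1914 to 2026 lower than NCsh (3765 to 3892 together), 1840 to 2045 higher and 1858 to 2018 lower than H1.2sh, and 1821 to 1989 higher and 2062 to 2186 lower than Cul4Ash. With the replicate number as a block, which the labels do not support as a pairing (deviations of same-numbered arrays correlated at -0.13 to 0.11), 2267 genes were higher and 2379 lower than NCsh. The paired fit moved none of these counts by over 1.5 times, but POLR2A, ENO1, TRIM43B and ITGAE lost their calls under it.

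Leaving out the 131 probes whose signal and detection p-value were out of order on any scanner array, also added after seeing the data, gave 2334 genes higher and 2414 lower than NCsh; HOXB13, HOXB9 and HOXD9 then have no value.

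Of 299 called genes eligible to be named, 107 lost the call under at least 1 alternative, 98 of them with neqc, and 2 turned direction with the mean of their probes: CSTF3, at 0.0759, and TEAD4, at 0.0369. Genes of the report that did not pass turned sign near 0 when each array was left out: LEO1 ranged from -0.103 to 0.0781, NEFL from -0.101 to 0.0966, RNF40 from -0.132 to 0.0164 and H1-2 from -0.0729 to 0.0910. H1-2 was also at -0.0585 with median scaling and -0.0516 with no normalization. Bead signal over background limits dim genes, most of all the TRIM family, which is near background in NCsh.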

Other observations

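These groups were put together after the values were seen, so their counts describe the arrays and support nothing. Of 13 measured small nuclear RNA genes 11 were higher in PAF1sh and 2 did not pass, with a median of 0.88, against 19.0% of all genes. RN7SK, the RNA that restrains the pause-release kinase, was at 9.09 and 9.09 on the PAF1sh arrays, against 8.07 and 8.16 on the NCsh arrays (0.98 ± 0.07), and RNU1-1, a copy of the U1 RNA, at 9.40 and 9.36 in PAF1sh cells and 8.49 and 8.50 in NCsh cells (0.88 ± 0.07). RNVU1-18, a variant U1 gene, rose by 1.00 ± 0.07, and copies of U1 may share probes. RNU6ATAC, of the minor spliceosome, rose by 0.88 ± 0.12, while RNU5A-1, at 0.11 ± 0.09, did not pass. These RNAs carry no poly(A) tail, and the labelling kit primes from such tails.

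Of 26 listed genes known as targets of DUX4, a transcription factor of the cleavage-stage human embryo, 17 were measured and 13 of these rose, with a median of 0.40; TRIM43 and TRIM43B are on this list and in the TRIM family. Of the 17, 14 did not exceed background in NCsh and were kept through other arrays. CCNA1, the germline cyclin, was at 7.32 and 7.39 on the PAF1sh arrays, against 6.18 and 6.03 on the NCsh arrays (at least 2.28-fold higher), MBD3L5 at 7.30 and 7.53 in PAF1sh cells and 6.43 and 6.39 in NCsh cells (at least 2.00-fold) and ZSCAN4, a regulator of telomeres in mouse embryonic stem cells, at 6.96 and 7.16 on the PAF1sh arrays, against 6.01 and 5.77 on the NCsh arrays (at least 1.90-fold). 

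Genes of methionine salvage and polyamine synthesis were lower in 7 of 11, with a median of -0.39. APIP and MTAP, which act in the salvage of methylthioadenosine, fell by like amounts: MTAP was at 7.93 and 8.03 on the PAF1sh arrays, against 9.56 and 9.63 on the NCsh arrays (-1.62 ± 0.08). Other salvage genes of the list did not share this, as MRI1 (-0.10 ± 0.09) and ADI1 (-0.08 ± 0.07) did not pass. MAT2A, which makes S-adenosylmethionine, rose (0.58 ± 0.08). Of 9 measured subunits of the mitochondrial outer membrane import channel and its helpers 7 fell, with a median of -0.47; TOMM5, a small subunit of the channel, was at 9.80 and 9.88 in PAF1sh cells and 11.03 and 11.21 in NCsh cells (-1.28 ± 0.08). Of 16 measured subunits of the vacuolar proton pump, which acidifies lysosomes, 6 rose (3 with median scaling) and 10 did not pass, with a median of 0.20. ATP6V0E2 rose most (0.44 ± 0.08). With neqc ATP6V0E2, MAT2A and RNU6ATAC did not pass. The medians of the 23 chromosomes with at least 100 genes tested lay between -0.03 and 0.07, so no chromosome as a whole was shifted by more than that.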
